A study of Mus musculus and Rattus norvegicus with 30 samples.

Results

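Mmp9 and 9 neutrophil granule genes were followed in every library of injured and sham-operated dorsal root ganglia (DRG), which lie along the spine and hold the cell bodies of sensory neurons. The members were Mmp9, S100a8, S100a9, Ngp, Camp, Lcn2, Ltf, Mpo, Elane and Retnlg, selected on their levels in these data, above all on whether the granule genes rose with Mmp9 in 1 rat library. All 10 were matched by symbol among 54315 features of the mouse count table and among 39281 features of the rat count table. Mice of the strains BALB/c and B10.D2 received either sham surgery or spared nerve injury (SNI), a cut of the peroneal and sural nerves that spares the tibial nerve, and L3 and L4 DRG of 1 animal per library were taken 28 days later. Male Wistar rats had L5 spinal nerve transection (SNT) or sham surgery, and L5 DRG of 3 animals were pooled per library 21 days later. BALB/c mice gave 6 sham and 4 SNI libraries, B10.D2 mice gave 5 of each, and rats gave 4 of each. Mouse libraries are named by the numbers in their labels and rat libraries are numbered 1 to 4 within a group.

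Neutrophils carry their weapons in granules that are filled while the cell matures in the bone marrow. Azurophil granules, which form first, hold myeloperoxidase (Mpo) and neutrophil elastase (Elane). Specific granules, which form later, hold lactoferrin (Ltf), the cathelicidin Camp, lipocalin 2 (Lcn2) and neutrophilic granule protein (Ngp), and gelatinase granules hold the matrix metalloproteinase Mmp9. S100a8 and S100a9 pair into calprotectin, an abundant protein of the neutrophil cytosol, and Retnlg is a resistin-like protein of neutrophils. Most granule mRNAs are made in marrow precursors and are low in circulating neutrophils, whereas Mmp9 is also made by macrophages, osteoclasts and other cells.

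Library totals ran from 30.0 M to 41.9 M counts in mouse and from 12.0 M to 17.9 M in rat. Levels are given as CPM, counts per 1 M counts of the library after TMM scaling, and 3 counts corresponded to 0.168 to 0.251 CPM in rat and to 0.0716 to 0.1 CPM in mouse. Markers of sensory neurons summed to between 8819 and 11560 CPM in mouse and between 4182 and 10870 CPM in rat, where 4 of the 12 were at 0 in all libraries. Of the injury markers tested, which include the transcription factor Sox11, 7 of 7 rose after SNT in rat, and 11 of 11 rose after SNI in BALB/c as did 10 of 11 in B10.D2. Of all features tested, 27.4%, 9.69% and 4.58% were called in either direction in these comparisons. The injury markers Atf3, Gap43 and Gpr151 were at 0 in all rat libraries. Rat sham library 4 stood apart from the other sham libraries toward the SNT libraries, with injury markers summing to 1014 CPM against 378 to 416 in the other sham libraries and 1318 to 1912 after SNT, and with a first principal component score of -6.3 against -48.7 to -35.7 in the other sham libraries and 1.1 to 49.9 after SNT.

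In rat, Mmp9 was higher in all 4 SNT libraries than in sham and extreme in 1 of them, where the granule genes were not raised with it. Mmp9 (ENSRNOG00000017539) stood at 1.58, 1.95, 1.496 and 1.43 CPM in sham libraries 1 to 4, and at 3.86, 3.05, 164 and 4.19 CPM in SNT libraries 1 to 4. SNT library 3 held 2951 counts of Mmp9, with a 95% exact Poisson interval of 158 to 170 CPM that covers counting error only. The level in SNT library 3 was 42.5 times the median of the other 3 SNT libraries, and lay 5.30 above their mean on the log2(CPM + 0.5) scale, where their SD was 0.21. All 4 SNT libraries lay above all 4 sham libraries, as they did for 12.2% of the 13690 rat features tested. The SNT minus sham difference of Mmp9 was 4.75 ± 1.40 (SE) on the log2 scale with all 8 libraries, 4.71 ± 1.62 without sham library 4 and 1.20 ± 0.23 without SNT library 3. The members were chosen on these levels, so the rat differences are given without a test.

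The calprotectin genes pointed the other way in that library. S100a8 was at 3.32, 2.81, 2.71 and 0.456 CPM in the sham libraries and at 3.35, 1.58, 0.667 and 1.70 CPM in the SNT libraries. S100a9 was at 8.62, 7.08, 4.92 and 2.02 CPM in sham and at 8.28, 3.27, 1.06 and 3.15 CPM in SNT. SNT library 3 was thus the lowest of 8 for S100a9 and the second lowest for S100a8, after sham library 4. Its 12 counts of S100a8 gave an interval of 0.345 to 1.17 CPM, and its 19 counts of S100a9 one of 0.636 to 1.65 CPM. The upper bound for S100a9 lay below the level of every other library.

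The specific granule genes behaved alike. Ngp was at 1.91, 2.01, 1.64 and 0.326 CPM in sham and at 3.16, 1.20, 0.445 and 0.721 CPM in SNT, and the 8 counts in SNT library 3 allowed 0.192 to 0.876 CPM. Camp was at 1.08, 1.28, 0.570 and 0.195 CPM in sham and at 1.39, 0.871, 0.278 and 0.328 CPM in SNT. Lcn2, which epithelia and glia can also make, was at 2.57, 3.96, 2.56 and 2.28 CPM in sham and at 3.22, 2.50, 1.72 and 2.43 CPM in SNT. SNT library 3 was the lowest of 8 for Lcn2 and the second lowest for Ngp and Camp, and SNT library 1 was the highest for Ngp and Camp. On the log2(CPM + 0.5) scale SNT library 3 lay below the mean of the other SNT libraries by -1.16 for S100a8, -1.67 for S100a9, -1.06 for Ngp, -0.73 for Camp and -0.53 for Lcn2, where Mmp9 lay above it by 5.30.

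The remaining members were at or near the floor in rat. Ltf had 2 counts, both in SNT library 1, and 0 in the other 7 libraries. Elane had 3, 5, 0 and 0 counts in sham and 15, 0, 1 and 0 counts in SNT, so that its highest level, 0.948 CPM, was again in SNT library 1. Mpo and Retnlg had 0 counts in all 8 libraries, and these were not read as levels. Genes of the mouse chromosomes that carry Mpo and Retnlg were nearly all at 0 in the rat table: 99.8% of 868 symbol-matched genes of mouse chromosome 11 and 99.4% of 347 genes of mouse chromosome 16, against 0.0% of 638 genes of mouse chromosome 9, which carries Ltf, Ngp and Camp. In bulk tissue, fewer cells of a type and less RNA per cell cannot be told apart.

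**Figure D1:**
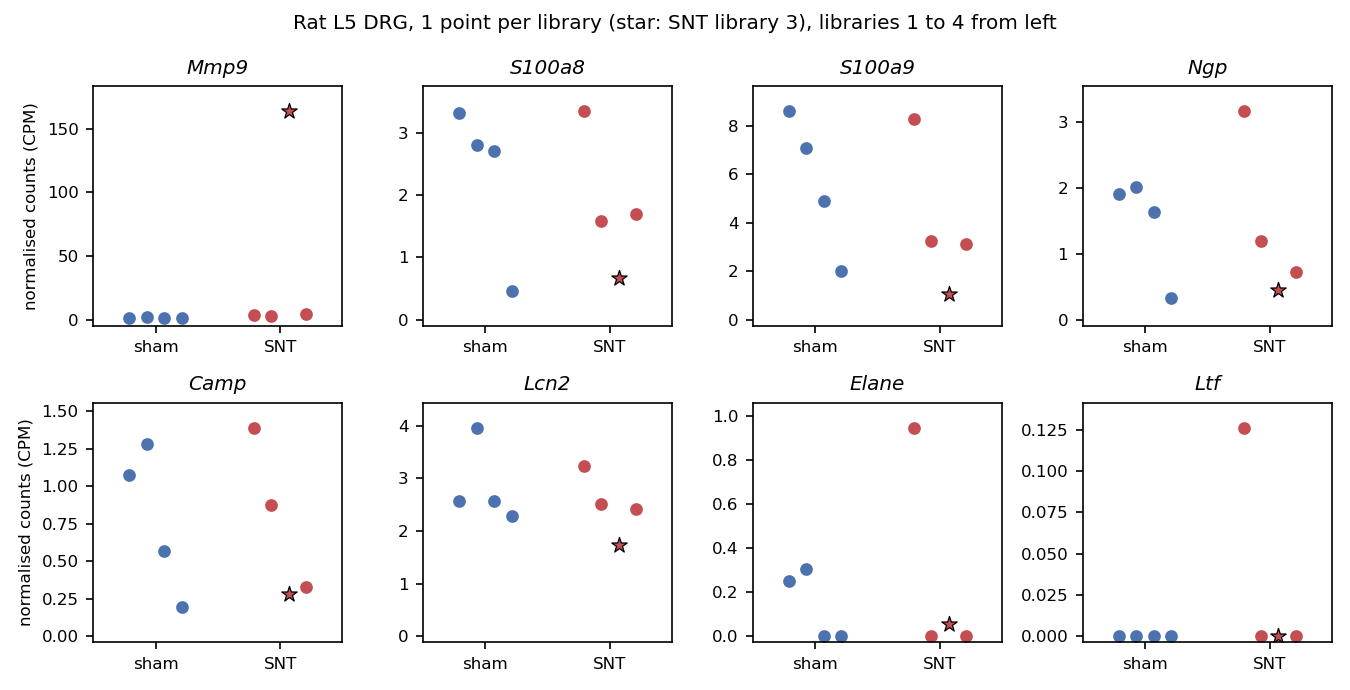
Normalised counts (CPM, linear axes) of 8 members in the 8 rat libraries, 1 point per library, sham in blue and SNT in red, with SNT library 3 as a star. Mmp9 reached 164 CPM in SNT library 3 and stayed at or below 4.19 CPM elsewhere, whereas S100a8, S100a9, Ngp, Camp and Lcn2 were at or near their lowest level in that library.

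Ranked by how far SNT library 3 exceeded the highest of the other 7 libraries, Mmp9 came first of 22245 rat features with at least 1 count. The log2 ratio, with 0.5 CPM added to both levels, was 5.13. The granule genes were near the other end of that order, at rank 19745 for Lcn2, 20691 for Camp, 20954 for Elane, 21482 for S100a8, 21713 for Ngp and 21998 for S100a9. Ltf, at 0 in that library, was at rank 11785. The order is a description only, since the members were chosen on their levels in that library.

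Features that followed Mmp9 in that order included other matrix proteases, genes of matrix and bone turnover, and Clec4e, Il1rn and Clec4d. Clec4e was at 5.67 CPM in SNT library 3 and at most 1.49 elsewhere, Il1rn at 16.6 and at most 5.17, and Clec4d at 5.73 and at most 2.20. Mmp10 (stromelysin 2) was at 45.0 CPM in SNT library 3 and at most 1.45 elsewhere, Mmp13 (collagenase 3) at 37.7 and at most 2.69, and Mmp12 (macrophage elastase) at 68.3 and at most 7.56. The osteoclast list, with 5 of 6 matched genes above 0, summed to 292 CPM in that library and to between 30.8 and 81.3 CPM in the other 7. Ctsk (cathepsin K) was at 200 CPM against 24.8 to 62.4, Acp5 (tartrate-resistant acid phosphatase) at 81.3 against 4.20 to 22.2, and Atp6v0d2, a proton pump subunit, at 9.34 against 0.0712 to 1.33. Dcstamp, needed for osteoclast fusion, was at 0 in all 8 libraries. Acan (aggrecan, of cartilage) and Col6a4 (a collagen VI chain) also stood out, at 21.3 and 42.9 CPM against at most 1.37 and 2.57, as did Fabp4, a fatty acid carrier of fat cells and macrophages, at 33.6 against at most 5.54. The whole cartilage list, with 3 of 6 matched genes at 0, summed to 109 CPM in SNT library 3, below 130 in SNT library 2. The osteoblast and bone matrix list, with 3 of 8 matched genes at 0, summed to 59.4 CPM, within the 35.1 to 66.4 CPM of the other 7 libraries. The part of any of these cells in the Mmp9 level was not tested.

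**Figure D2:**
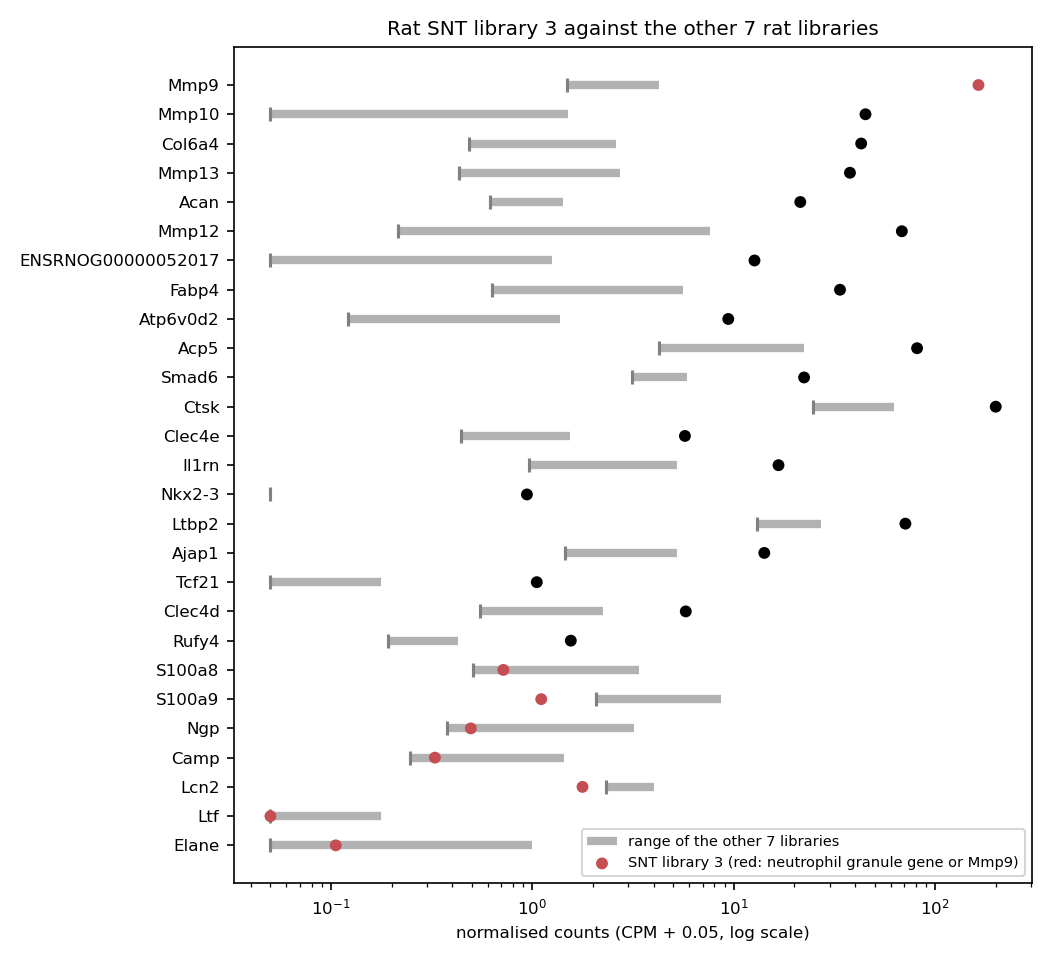
Level in rat SNT library 3 (points, CPM + 0.05 on a log axis) against the range of the other 7 rat libraries (grey bars) for the 20 features that exceeded that range most and for the members with counts. Members are red. Mmp9 lay far to the right of its bar, and S100a9 and Lcn2 lay to the left of theirs.

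Other blood cell lists differed in how they stood in SNT library 3. The erythrocyte list, 8 of whose 12 matched genes had counts, summed to 137 CPM in SNT library 3, the lowest of 8 libraries, against 378 to 596 in the other SNT libraries and 689 to 1673 in sham. The platelet and megakaryocyte list, with 4 of 6 matched genes at 0, summed to between 0.328 and 1.65 CPM over all libraries. The macrophage list, with Cd68, Aif1, Csf1r and Mrc1 at 0, summed to 732 CPM in SNT library 3, the highest of 8, against 501 to 609 in the other SNT libraries, 593 in sham library 4 and 155 to 273 in the other sham libraries. The list of other neutrophil genes, of which the lysozyme Lyz2, also made by macrophages, made up most, was also highest there, at 2107 CPM against 1378 to 1680 in the other SNT libraries, 1598 in sham library 4 and 368 to 660 in the other sham libraries. SNT library 3 likewise had the highest sums of the monocyte list, at 119.6 CPM against at most 112.9, of the T and natural killer list, at 154.6 against at most 126.9, and of the proliferation list, at 142.2 against at most 118.6. In the monocyte list 3 of 4 matched genes, Cd14, F13a1 and Plac8, were at 0 in all rat libraries, as were 4 of 7 in the proliferation list. The part of the cells of these lists in the Mmp9 level was not tested.

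The 10 features most like Mmp9 across the 8 rat libraries, of 13689 compared by Pearson's r of log2(CPM + 1), held Acan (r = 0.95), Smad6 (r = 0.95), Mmp13 (r = 0.94) and Atp6v0d2 (r = 0.94) and none of the granule genes. SNT library 3 was the highest of 8 for each of these 10 features. Their rank correlations with Mmp9 ran from 0.07 for Acan to 0.86 for Pdzrn3, with 0.69 for Mmp13, 0.52 for Atp6v0d2 and 0.50 for Smad6. For the 5 granule genes that could be compared, r with Mmp9 ran from -0.65 for S100a9 to -0.38 for Camp. The rank correlations ran from -0.26 for S100a9 to 0.07 for Camp, with 8 points that share 1 extreme library.

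Other neutrophil genes were measured in part in rat, since 12 of 33 matched genes were at 0 in all libraries. Of the 12 tested, 2 rose after SNT (edgeR quasi-likelihood test), against 27.4% of all 13690 features called in either direction. They were Il1r2, a decoy receptor for interleukin 1, at 3.12 ± 0.98 (SD, n = 4) against 1.18 ± 0.70 CPM with a log2 difference of 1.39 ± 0.38 (SE, edgeR adjusted p = 0.0255), and Ncf4, a subunit of the phagocyte oxidase, at 8.78 ± 1.30 against 4.82 ± 1.63 CPM with 0.87 ± 0.24 (edgeR adjusted p = 0.025). DESeq2 called 3. The edgeR count fell to 0 without sham library 1, 2 or 3, was 1 without SNT library 2, 3 or 4, and rose to 4 without SNT library 1 and 7 without sham library 4. Of the 12 other matrix metalloproteinases and inhibitors tested in rat, 4 rose and 1 fell after SNT. The risers included Mmp16 by 1.22 ± 0.30 (edgeR adjusted p = 0.019) and Mmp19 by 1.21 ± 0.32 (edgeR adjusted p = 0.0223), and the fall was that of the inhibitor Timp4.

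In mouse, the members varied together from animal to animal, and most in BALB/c. All 10 passed the filter on low counts. S100a8 (ENSMUSG00000056054) ran from 8.66 to 65.8 CPM in BALB/c sham with a median of 13.7, and was at 113, 21.97, 39.6 and 18.8 CPM in BALB/c SNI libraries 49, 64, 65 and 70. In B10.D2 it was at 20.03, 4.67, 8.50, 8.75 and 15.2 CPM in sham libraries 58, 60, 67, 77 and 88, and at 6.48, 5.97, 11.6, 6.34 and 9.66 CPM in SNI libraries 69, 76, 78, 89 and 90. BALB/c SNI library 49 and BALB/c sham library 50, both male, were the highest of 20, followed by BALB/c SNI library 65 and BALB/c sham library 55, both female.

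The same libraries led for the other granule genes. Mpo was at 15.3 CPM in library 49, 10.01 in library 50, 9.10 in library 55 and 4.93 in library 65, and at most 2.34 in the other 16. Elane was at 4.38, 2.50, 2.70 and 1.24 CPM in these 4 libraries and at most 0.781 in the rest. Between the highest and the lowest of the 20 libraries, the ratio was 24.2 for S100a8, 26.1 for Ltf, 33.2 for Ngp, 143 for Mpo and 164 for Elane, whose lowest levels rest on few counts.

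Mmp9 (ENSMUSG00000017737) had a smaller range, with a highest level 7.57 times the lowest. It was at 9.11, 2.96, 5.03 and 2.95 CPM in BALB/c SNI libraries 49, 64, 65 and 70, and ran from 1.58 to 6.68 CPM in BALB/c sham with a median of 3.37. In B10.D2 it was at 3.22, 1.63, 2.12, 1.41 and 2.05 CPM in sham and at 1.98, 2.91, 2.72, 1.20 and 1.96 CPM in SNI. Library 49 and library 50 were again the highest, followed by BALB/c sham library 56 at 6.02 CPM, where S100a8 was at 13.4, below the BALB/c sham median, and Retnlg was at 0.893, the lowest of its group.

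**Figure D3:**
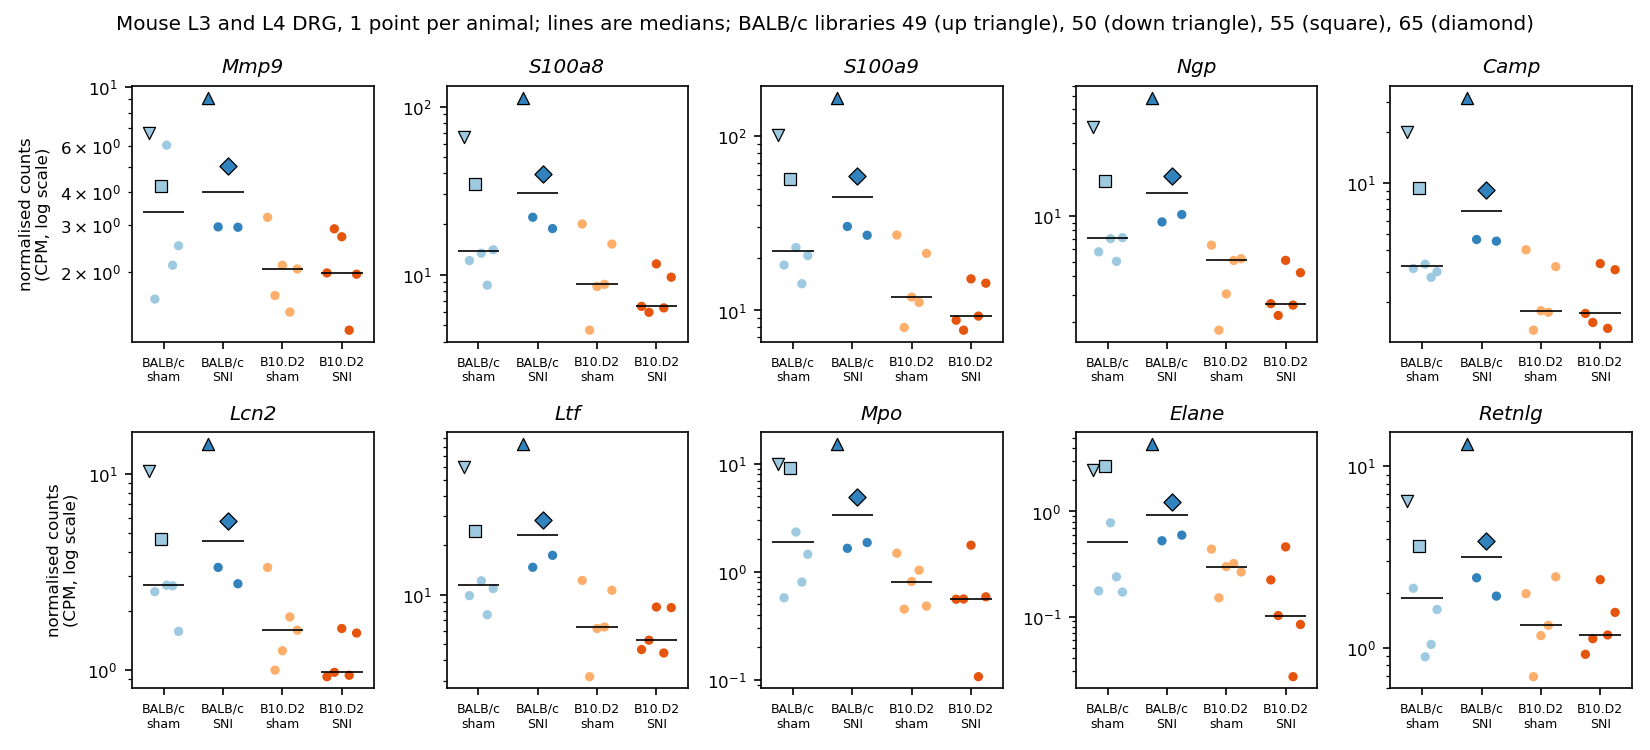
Normalised counts (CPM, log axes) of the 10 members in the 20 mouse libraries, 1 point per animal with the median of each group as a line. Marked symbols are BALB/c libraries 49, 50, 55 and 65, which were the 4 highest for S100a8, S100a9, Ngp, Camp, Lcn2, Ltf, Mpo, Elane and Retnlg, while for Mmp9 sham library 56 came after libraries 49 and 50.

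Across the 20 mouse libraries Mmp9 rose with each of the 9 granule genes on the log2(CPM + 1) scale. Pearson's r ran from 0.74 for Retnlg to 0.90 for Mpo, and Spearman's rho from 0.52 for Retnlg to 0.86 for Mpo. These are given as a description with no test, since the members were chosen on their levels and the 20 libraries span 2 strains that differ in them. Without libraries 49 and 50, the farthest from the median of Mmp9, r ran from 0.42 for Retnlg to 0.79 for Mpo. Within a strain, r ran from 0.69 to 0.88 over the 10 BALB/c libraries and from 0.33 for Ngp to 0.64 for Mpo over the 10 B10.D2 libraries, a difference between strains that was not tested. Within a condition r ran from 0.53 to 0.83 in sham and from 0.91 to 0.97 after SNI.

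The genes most like S100a8 over the 20 mouse libraries were largely members. Of 24684 features compared, the 10 with the highest Pearson's r were S100a9 (0.995), Ltf (0.99), Ngp (0.98), Cd177 (0.98), Camp (0.98), Mmp8 (0.98), Abca13 (0.96), Lcn2 (0.96), Slc4a1 (0.95) and Retnlg (0.95). Cd177 is a neutrophil surface protein, Mmp8 is the collagenase of neutrophil granules, and Slc4a1 is the anion exchanger of red cells and their precursors. Mpo was at rank 29 (r = 0.93), Elane at 44 (r = 0.91) and Mmp9 at 127 (r = 0.85). These are correlations over libraries in which 2 BALB/c animals carry much of the range.

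The promoters of members that moved together in mouse are shown because C/EBP factors and PU.1 are known regulators of granule genes during neutrophil maturation. Sequences are from a set of RefSeq promoters on GRCm38.p6, which had 9 of the 10 members and lacked Mmp9. Each runs 5′ to 3′ on the gene's strand up to the base before the more upstream of the RefSeq and GENCODE starts. Capitals mark matches, on either strand, to the C/EBP motif TTGCNNAA or the PU.1 motif GAGGAA. The S100a8 stretch is chr3:90668821-90668977 on the plus strand, S100a9 is chr3:90695722-90695971 on the minus strand, Ngp is chr9:110419558-110419746 on the plus strand and Ltf is chr9:111019042-111019270 on the plus strand.
S100a8: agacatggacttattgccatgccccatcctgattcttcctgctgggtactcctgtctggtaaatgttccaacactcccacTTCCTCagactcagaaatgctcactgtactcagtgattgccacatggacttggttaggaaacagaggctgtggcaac
S100a9: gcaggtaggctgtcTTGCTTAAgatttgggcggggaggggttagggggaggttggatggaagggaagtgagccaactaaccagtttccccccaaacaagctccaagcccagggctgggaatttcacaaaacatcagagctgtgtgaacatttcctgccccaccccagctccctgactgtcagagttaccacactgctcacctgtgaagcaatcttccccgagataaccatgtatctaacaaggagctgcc
Ngp: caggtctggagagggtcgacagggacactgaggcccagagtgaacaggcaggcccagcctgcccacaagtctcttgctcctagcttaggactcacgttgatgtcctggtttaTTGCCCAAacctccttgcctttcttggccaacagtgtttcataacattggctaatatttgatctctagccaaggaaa
Ltf: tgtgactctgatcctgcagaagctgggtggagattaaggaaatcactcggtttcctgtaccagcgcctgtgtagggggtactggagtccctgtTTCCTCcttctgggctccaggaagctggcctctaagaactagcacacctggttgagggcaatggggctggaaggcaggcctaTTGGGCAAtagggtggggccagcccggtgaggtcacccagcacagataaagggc
In the 250 bases before the RefSeq start, the C/EBP motif was found in 5 of the 9 members (S100a9, Ngp, Lcn2, Ltf and Retnlg) and in 9.56% of all 32851 promoters. The PU.1 motif was found in 5 of 9 (S100a8, Lcn2, Ltf, Mpo and Elane) and in 23.3% of all promoters. For Lcn2, counted for both motifs, no base of these 250 lay upstream of the GENCODE start. Camp had no match to any motif searched. The AP-1 motif TGANTCA was found in none of the 9 members and in 6.75% of all promoters. The Mmp9 promoter was not searched for any motif. No match overlapped a match to another motif in the stretches printed. The genes lie at chr3:90668978-90670035 (S100a8), chr3:90692632-90695721 (S100a9), chr9:110419747-110423012 (Ngp), chr9:109847379-109849617 (Camp) and chr9:111019271-111042767 (Ltf) in the GENCODE M21 annotation, so that S100a8 neighbours S100a9, and Mmp9 lies at chr2:164940780-164955850.

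SNI did not give a called change of any member in either strain. In BALB/c, 0 of 10 members were called (edgeR quasi-likelihood test, 0 at an unadjusted p under 0.05, 0 with DESeq2), where 9.69% of 24685 features were. All 10 differences were positive, from 0.37 ± 0.38 (SE) for Mmp9 to 0.98 ± 0.49 for Retnlg on the log2 scale, with a median of 0.76 against 0.00 for all features. S100a8 averaged 48.4 ± 44.1 CPM (SD, n = 4) after SNI and 24.8 ± 22.1 CPM (SD, n = 6) in sham, so the spread between animals was about as large as the means, and the groups overlapped for all 10 members. In B10.D2, 0 of 10 were called (0 at an unadjusted p under 0.05, 0 with DESeq2), where 4.58% of features were, and the median difference was -0.22. S100a8 averaged 8.01 ± 2.49 CPM (SD, n = 5) after SNI and 11.4 ± 6.11 CPM (SD, n = 5) in sham, with a difference of -0.34 ± 0.55, and Mmp9 2.15 ± 0.68 and 2.09 ± 0.70 CPM, with a difference of 0.05 ± 0.41.

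The SNI effect was not shown to differ between strains. Of the 10 members 0 had a called strain by injury interaction (edgeR, 0 at an unadjusted p under 0.05, 0 with DESeq2), where 0.0243% of features did. The B10.D2 effect minus the BALB/c effect was -1.26 ± 0.74 for S100a8 and -0.32 ± 0.56 for Mmp9, with a median of -0.96 over the members.

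The strains differed after SNI. All 10 members were called lower in B10.D2 SNI than in BALB/c SNI libraries, where 9.98% of features were called lower and 20.8% were called in either direction. The members were selected on their levels in these data and varied together, so counts of members called, here and in sham, are not counts of independent genes. Among azurophil granule genes, Mpo averaged 5.93 ± 6.41 CPM (SD, n = 4) in the BALB/c animals against 0.717 ± 0.622 (SD, n = 5) in the B10.D2 animals, a log2 difference of -2.98 ± 0.86 (edgeR adjusted p = 0.016), and Elane differed by -3.14 ± 0.89 (edgeR adjusted p = 0.0144). The specific granule genes Ngp, Camp, Lcn2 and Ltf differed by -2.28 to -2.65 (edgeR adjusted p between 0.00182 and 0.00841). S100a8 differed by -2.43 ± 0.56 (edgeR adjusted p = 0.00289), S100a9 by -2.52 ± 0.55 (edgeR adjusted p = 0.00194) and Retnlg by -1.71 ± 0.54 (edgeR adjusted p = 0.0265). Mmp9 differed least, by -1.20 ± 0.41 (edgeR adjusted p = 0.04). For 8 of 10 members every B10.D2 SNI library lay below every BALB/c SNI library, as it did for 8.86% of features, and Mpo and Retnlg overlapped.

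BALB/c SNI library 49 carried part of these calls. Without it 5 of 10 members were called, namely S100a8, S100a9, Ngp, Lcn2 and Ltf, with S100a8 at -1.79 ± 0.53 (edgeR adjusted p = 0.023) and Mmp9 at -0.75 ± 0.39 (edgeR adjusted p = 0.223). Without libraries 49 and 50, which had the highest skeletal muscle signal, 8 of 10 were called and Mmp9 (edgeR adjusted p = 0.147) and Retnlg (edgeR adjusted p = 0.139) were not.

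In sham animals the differences had the same direction and fewer passed the test. Those of B10.D2 from BALB/c were negative for all 10, with a median of -1.41, and 4 of 10 were called lower (9 at an unadjusted p under 0.05, 4 with DESeq2), where 10% of features were called lower and 21.6% in either direction. The called members were Ngp by -1.63 ± 0.53 (edgeR adjusted p = 0.0323), Camp by -1.58 ± 0.55 (edgeR adjusted p = 0.0466), Ltf by -1.45 ± 0.50 (edgeR adjusted p = 0.0402) and Mpo by -2.25 ± 0.78 (edgeR adjusted p = 0.0439). S100a8 differed by -1.17 ± 0.50 and Mmp9 by -0.89 ± 0.38. The groups overlapped for all 10 members, and the count fell to 0 without BALB/c sham library 50 or 55 or B10.D2 sham library 60, 67 or 88, to 1 without B10.D2 sham library 77 and to 2 without BALB/c SNI library 65 or B10.D2 SNI library 69, 76 or 90, and rose to 7 without BALB/c sham library 51. Without libraries 49 and 50 together it was 0.

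**Figure D4:**
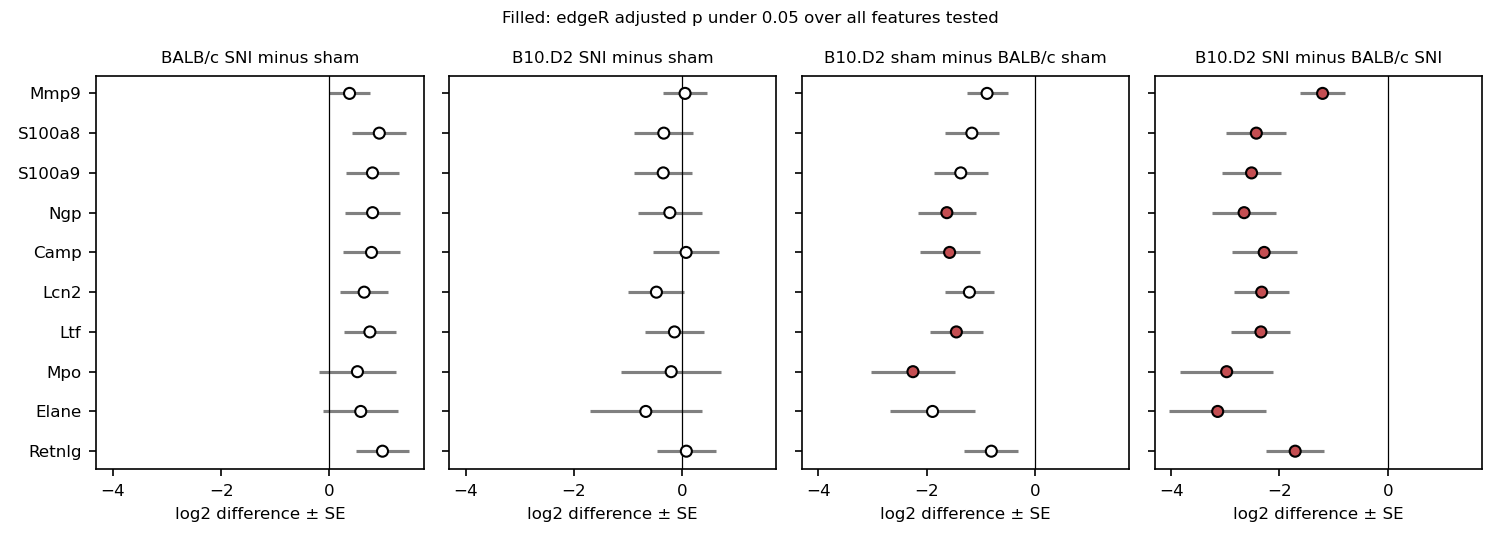
Log2 differences ± SE of the 10 members in 4 mouse comparisons (edgeR), with filled points where the adjusted p was under 0.05. The SNI effects lay on both sides of 0 and none was filled, 4 points were filled for the strains in sham, and all 10 for the strains after SNI.

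Other neutrophil genes were in part lower in B10.D2. Of 35 tested, 14 were called lower and 1 higher in B10.D2 SNI than in BALB/c SNI, where 9.98% of all features were called lower, with a median of -1.03 against -2.39 for the members. In sham 5 of 35 were called lower and 1 higher, where 10% of all features were called lower, with a median of -0.25 against -1.41 for the members. The summed level of this list followed S100a8 with an r of 0.94 over the 10 BALB/c libraries and 0.295 over the 10 B10.D2 libraries, a difference that was not tested, and with 0.64 over all 20 and 0.37 without libraries 49 and 50. Lyz2 alone held a large part of that sum. In BALB/c it averaged 136 CPM after SNI and 83.0 CPM in sham, where the list had median sums of 269 and 160 CPM. The called genes with the largest differences were Fcnb, a ficolin of neutrophil granules, by -3.57 ± 0.74 (edgeR adjusted p = 0.00111), Wfdc21 by -2.85 ± 0.56 (edgeR adjusted p = 0.00071), Ly6g, the surface marker of mouse neutrophils, by -2.59 ± 0.54 (edgeR adjusted p = 0.00127) and Mmp8 by -2.32 ± 0.56 (edgeR adjusted p = 0.00463). The exception was Mmp25, higher in B10.D2 by 1.20 ± 0.10 (edgeR adjusted p = 8.21e-09), at 35.7 ± 5.21 against 15.8 ± 2.31 CPM. After SNI, 1 of 35 was called in BALB/c (11 at an unadjusted p under 0.05, 1 with DESeq2), which was Lyz2, the lysozyme that macrophages also make, by 0.71 ± 0.21 (edgeR adjusted p = 0.0378). That count was 11 without BALB/c sham library 50, 4 without SNI library 70, 2 without sham library 55, and 0 without sham library 51, 56, 57 or 71 or SNI library 49 or 65. In B10.D2 0 of 35 were called after SNI (edgeR, 2 at an unadjusted p under 0.05, 0 with DESeq2). Of all features, 9.69% were called after SNI in BALB/c and 4.58% in B10.D2. Of 10 neutrophil recruitment genes tested, 0 were called after SNI in BALB/c (3 at an unadjusted p under 0.05 with edgeR) and 1 in B10.D2, interleukin 1 beta (Il1b), by 1.24 ± 0.33 (edgeR adjusted p = 0.0345).

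Some of the other S100 genes and metalloproteinases were called after SNI, where 9.69% of all features were called in BALB/c and 4.58% in B10.D2. Of 11 other S100 genes tested, 3 rose and 1 fell in BALB/c, and 2 rose and 1 fell in B10.D2 (edgeR). S100a4 rose by 1.14 ± 0.10 in BALB/c (edgeR adjusted p = 1.62e-07) and by 0.61 ± 0.10 in B10.D2 (edgeR adjusted p = 0.000601), and S100b, of glia, fell by 0.38 and by 0.34 on the log2 scale. Mmp16 rose by 1.28 ± 0.11 in BALB/c (edgeR adjusted p = 1.03e-07) and by 1.01 ± 0.11 in B10.D2 (edgeR adjusted p = 7.73e-06). Of 18 other metalloproteinases and inhibitors tested, 5 rose in BALB/c, 3 rose in B10.D2, and 0 fell (edgeR).

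Of the lists of other cells, that of proliferation genes was highest in the 4 libraries highest for S100a8. This list, which holds Mki67 and Top2a, summed to 136 CPM in library 49, 70.7 in library 50, 64.8 in library 65 and 60.5 in library 55, and to between 14.8 and 40.4 CPM in the other 16. The platelet and megakaryocyte list summed to 64.3, 37.0, 14.3 and 28.9 CPM in these 4 and to between 10.3 and 17.2 CPM in the rest, so that library 65 lay within the range of the rest. The sum of the erythrocyte list did not separate them, with 1144, 1194, 1100 and 673 CPM against 227 to 1338 CPM. Slc4a1, on that list, did follow S100a8 over the 20 libraries (r = 0.95) and was highest in library 49, at 86.8 CPM. After SNI, 6 of 12 erythrocyte genes were called lower in B10.D2 than in BALB/c, including Hemgn by -3.18 ± 0.72 (edgeR adjusted p = 0.00268), as were 5 of 7 proliferation genes, including Mki67 by -1.72 ± 0.47 (edgeR adjusted p = 0.0111). The 4 globin features on the erythrocyte list were not called. Of all features, 9.98% were called lower in B10.D2 than in BALB/c after SNI. Of 8 B lineage genes tested, 5 were called lower and 1, Ebf1, higher, with a median log2 difference of -1.16. The sum of this list had the direction of Ebf1 and not of the 5 lower genes. It was 150 to 165 CPM in BALB/c SNI and 173 to 210 CPM in B10.D2 SNI. That sum ran against S100a8 over the 20 libraries (r = -0.74), with r = -0.55 within BALB/c and -0.42 within B10.D2.

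Skeletal muscle genes marked 2 of these libraries. The list of muscle genes, such as creatine kinase Ckm, summed to 1502 CPM in library 50 and 590 in library 49, and to between 10.2 and 103 CPM in the other 18, with 36.0 in library 65 and 34.1 in library 55. Libraries 55 and 65, high for the granule genes, had muscle levels within the range of the rest. The part of muscle, blood or marrow in the levels of the members was not tested.

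**Figure D5:**
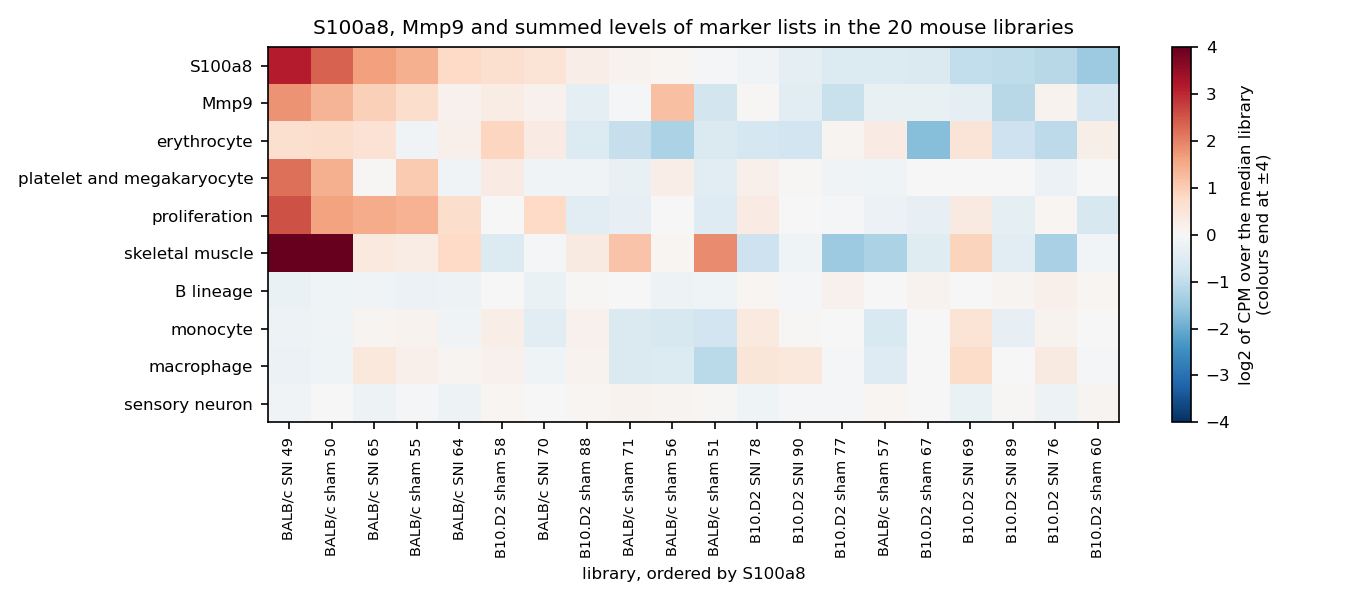
Log2 of the level over the median library for S100a8, Mmp9 and the summed CPM of 8 marker lists in the 20 mouse libraries, ordered by S100a8 from left. Proliferation genes were high in the 4 leftmost libraries, skeletal muscle genes in the 2 leftmost, and sensory neuron genes varied little.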

How the data were processed

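RNA was sequenced from mouse and rat DRG. Per the study's methods, the authors aligned strand-specific reads with STAR and counted them with HTSeq over annotated genes and assembled LncRNAs, on GRCm38 and Rnor_6.0. The deposited tables give unnormalised counts for each feature, and these counts were used. The authors' result tables hold means, fold changes, errors, statistics and p-values of their own comparisons and were used for gene symbols only. Groups came from the labels. Of 30 labelled samples, 28 had a column, and B10.D2 sham 59 and BALB/c SNI 66 were not analysed here. No 2 libraries were identical.

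Counts were tested with edgeR 4.0.16 (quasi-likelihood F test, TMM, filterByExpr) in R 4.3.3, with group and sex in mouse (20 libraries) and group in rat (8 libraries). P-values were adjusted over all features tested by the Benjamini-Hochberg method, with a threshold of 0.05, and the fit was tested on simulated counts. The p-values measure the spread between these animals or, in rat, pools. CPM are counts over library total times TMM factor. Correlations are given as descriptions. Alternatives were DESeq2 1.42.0 and its size factors, other count filters, no sex term, strains apart, a replicate block and leaving out libraries, of which leaving out 2 libraries together was chosen after seeing the data. Members and gene lists were chosen with earlier results of these data known. Of a list, the text names at most 4 called genes with the largest differences per comparison, and genes that stood out in SNT library 3. One list gene is not reported here. No member needed a test outside the fit.

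Rat genes of several chromosomes were at 0 throughout. Library totals were 12.0 M to 41.9 M counts, and a level under 3 counts was read as at the floor.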

Additional observations from a re-analysis of the deposited data

Results flagged for a closer look

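In 8 of 55 combinations of a member and a group with counts, 1 library stood apart from the rest of its group by Dixon's criterion, the gap to the nearest library over the range of the group. For values with a normal spread, chance gives about 1 in 20 such groups. The CPM used were not on a log scale, and the members are not independent of one another. In rat SNT, Mmp9 in library 3 gave 0.993 (164 CPM against 4.19 in the next library). That value is a description only, since the members were chosen on their levels in that library. In the same group library 1 stood apart for Ltf (1.0, 2 counts against 0, under the floor of 3 counts) and for Elane (0.941, 0.948 against 0.0556 CPM). In BALB/c sham, library 50 stood apart for Ngp (0.646, 38.1 against 16.7 CPM), Lcn2 (0.653, 10.4 against 4.63 CPM) and Ltf (0.677, 59.7 against 24.4 CPM). In BALB/c SNI, library 49 stood apart for Camp (0.832, 31.7 against 9.10 CPM). In B10.D2 SNI, library 78 stood apart for Mpo (0.711, 1.77 against 0.588 CPM).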

How the results depend on the processing

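The counts of members called after SNI in either strain and with a strain by injury interaction were 0 under every alternative run. The strain count after SNI, 10 of 10, ran from 5 to 10 when 1 library was left out, with 5 without BALB/c SNI library 49. The strain count in sham, 4 of 10, was 9 with no filter on low counts, 2 with at least 10 counts in every library, 2 with no sex term, 0 without BALB/c libraries 49 and 50, and 0 to 7 when 1 library was left out. The count of other neutrophil genes after SNI in BALB/c, 1, was 4 with no filter, 0 with BALB/c fitted alone, 2 without libraries 49 and 50, and 0 to 11 when 1 library was left out. That of rat SNT, 2, was 7 without sham library 4 and SNT library 1, and 0 to 7 when 1 library was left out. The cause was not tested, beyond the smaller number of samples.

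With a replicate block by the number that rat sham and SNT titles share, the rat count was 1 and the Mmp9 difference was 2.53 ± 1.09. Correlations of same-numbered rat libraries ran from -0.27 to 0.05 and of others from -0.53 to 0.47, so the numbers were not taken to pair samples. No paired analysis was possible in mouse because the numbers in the labels name single animals.

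Of the members' log2 differences, all 258 refits of the strain comparison after SNI and all 258 in sham had the direction given, as did 263 of 268 for SNI in BALB/c, 245 of 268 for SNI in B10.D2 and 72 of 81 in rat. Without sham library 4 and SNT library 1 the rat differences of S100a9, Ngp and Camp were -1.46, -1.22 and -0.96. Depth limits Elane, Mpo and the rat levels of all granule genes, which rest on few counts.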

Other observations

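Macrophage genes did not share the strain difference of the granule genes. Of 12 tested, 6 were higher in B10.D2 sham than in BALB/c sham and 0 lower (edgeR), with C1qb, a complement component made by tissue macrophages, at 17.5 ± 0.92 (SD, n = 5) against 8.45 ± 2.40 CPM (SD, n = 6) and a log2 difference of 1.09 ± 0.17 (edgeR adjusted p = 5e-05). After SNI 4 of 12 were higher in B10.D2, led again by C1qb at 1.05 ± 0.19 (edgeR adjusted p = 0.000255). Of all features, 21.6% were called in either direction between the strains in sham and 20.8% after SNI. With SNI itself, 4 of 12 rose in BALB/c mice and 1 rose in the B10.D2 strain, where 9.69% and 4.58% of all features were called in either direction. The gene Ms4a7, a macrophage membrane protein, rose in both, by 1.16 ± 0.19 in BALB/c (edgeR adjusted p = 0.000256) and by 1.01 ± 0.18 in B10.D2 (edgeR adjusted p = 0.00149). Of the 4 BALB/c libraries that were highest for S100a8, sham libraries 55 and 50 had the highest sums of this list in their group, at 225 and 176 CPM against 92.4 to 139, and SNI library 65 the highest in its group, at 262 CPM, whereas SNI library 49 had the lowest in its group, at 168 CPM. All 4 lay within or below the range of the B10.D2 libraries, 189 to 327 CPM.

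Car1, a carbonic anhydrase of red cell precursors and other cells, was the erythrocyte list gene that rose with SNI in both strains, by 2.14 ± 0.50 (edgeR adjusted p = 0.00813) in BALB/c and 2.51 ± 0.53 (edgeR adjusted p = 0.00712) in B10.D2. In rat, 5 of 7 erythrocyte genes tested fell after SNT and 0 rose (edgeR), with Hemgn by -1.19 ± 0.35 (edgeR adjusted p = 0.0323). Of all rat features tested, 27.4% were called in either direction.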
